A study of Mus musculus with 6 samples.

Results

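Stk26, its sister kinases Stk24 and Stk25, and the proteins that bind them, Pdcd10, Strn and Strn3, were followed in sorted mouse ovarian surface epithelium cells. All probe sets annotated to exactly 1 of these 6 gene symbols were taken, which gave 14 of the 45037 probe sets on the array once control probe sets were left out. The array named 18193 genes through such probe sets. No probe set annotated to several genes included a member. Stk26 was chosen by its mean difference between the fractions in these same arrays, and the other genes because they belong to the same complex. The differences of Stk26 between the fractions are therefore a description, and no member was given a p-value.

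The cells were primary ovarian surface epithelium, the cell layer that covers the ovary, from 8-week-old virgin FVB/N mice. ALDH-positive and ALDH-negative cells were separated by flow cytometry on ALDEFLUOR staining after 24 hours of culture. ALDEFLUOR is a fluorescent substrate that reports the activity of aldehyde dehydrogenases (ALDH), so the sort does not single out 1 enzyme. Each of 3 pools of 10 mice gave 1 ALDH-positive and 1 ALDH-negative sample, hybridised to 6 Affymetrix Mouse Genome 430 2.0 arrays, and the number of arrays limits the precision. Neither fraction carries a transgene or a drug treatment in the labels, and a pool hides the spread between its mice. In such bulk samples, fewer cells of a type and less RNA per cell cannot be told apart.

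STRIPAK, the striatin-interacting phosphatase and kinase complex, joins protein phosphatase 2A to kinases of the germinal centre kinase family. Striatins such as Strn and Strn3 form its scaffold and act as regulatory subunits of the phosphatase, and Pdcd10 (also Ccm3) is the adaptor through which Stk24, Stk25 and Stk26 reach the scaffold. Held there, the kinases lie close to the phosphatase that can inactivate them. The kinases, known in earlier work as MST3, YSK1 and MST4, act on cell polarity, the Golgi apparatus and cell migration, and Pdcd10 is a gene of cerebral cavernous malformation in humans. The complex also restrains the kinases of the Hippo pathway, which control the coactivators Yap1 and Wwtr1.

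Stk26 lies on chromosome X at positions 50841174 to 50893103 of mouse assembly GRCm38.p6, and Stk24 and Stk25 lie on chromosomes 14 (121284187 to 121380496) and 1 (93620751 to 93654216). Pdcd10 is on chromosome 3 (75516490 to 75556852), Strn on chromosome 17 (78649898 to 78737322) and Strn3 on chromosome 12 (51608541 to 51692351). RefSeq promoter sequence for that assembly was at hand for 5 of the 6 genes. The 250 bases upstream of a RefSeq start are shown for Stk26, whose signal separated the fractions, and for the sister kinase Stk25, whose signal did not. Capitals mark GC boxes (GGGCGG on either strand), CCAAT boxes (CCAAT on either strand) and TEAD motifs (CATTCC on either strand), and the matches printed here do not overlap one another. The Stk26 window is chrX:50841121-50841370 on the plus strand, and RefSeq lists an earlier start of the gene inside it. The Stk25 window is chr1:93635728-93635977 on the minus strand, upstream of a start that lies inside the annotated span of the gene.
Stk26: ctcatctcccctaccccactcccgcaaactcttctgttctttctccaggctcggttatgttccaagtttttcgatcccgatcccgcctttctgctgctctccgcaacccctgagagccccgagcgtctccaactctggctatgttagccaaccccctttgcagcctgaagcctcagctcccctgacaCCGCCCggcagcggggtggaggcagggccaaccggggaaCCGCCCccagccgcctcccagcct
Stk25: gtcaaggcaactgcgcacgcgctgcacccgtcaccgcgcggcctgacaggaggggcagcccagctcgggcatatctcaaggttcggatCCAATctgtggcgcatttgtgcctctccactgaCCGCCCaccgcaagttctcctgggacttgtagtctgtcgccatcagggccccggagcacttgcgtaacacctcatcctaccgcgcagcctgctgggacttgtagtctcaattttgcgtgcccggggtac
The Stk26 window held 2 GC boxes and no CCAAT box, and that of Stk25 held 1 of each. Among all 32851 windows of 250 bases in the table, 32.7% held a GC box and 33.8% a CCAAT box. The TEAD motif, the site of the transcription factors that Hippo signalling controls, was in 12.6% of all windows and in none of the 5 member windows, which says only that these letters are not there. The Stk26 window was 63.2% G and C with 14 CpG, and that of Stk25 was 62.4% with 19 CpG, against medians of 52.4% and 6 CpG over all windows.

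The ALDH-negative array of pool 2 correlated at 0.561 to 0.687 with the other arrays across probe sets, while the other 5 correlated at 0.845 to 0.974 with each other. Its deposited reading of the 3' control for Actb, which encodes beta-actin, was 5.03, against 9.56 to 11.04 elsewhere. The low reading was not shared by every such probe set. The deposited 3' control for Gapdh read 10.07 on that array, against 10.22 to 11.25 elsewhere. After quantile normalization, a probe set of the Actb gene itself read 9.07 there, within the 8.43 to 11.15 of the other arrays. Means are therefore also given over pools 1 and 3. Both arrays of pool 3 had a low deposited 5' signal of the Gapdh control, with 5.20 for the ALDH-positive and 6.63 for the ALDH-negative sample, against 10.24 and 10.30 in pool 1. All values below are log2 signals after quantile normalization, differences are ALDH-positive minus ALDH-negative within a pool, and an SD of a difference is over the 3 pools.

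**Figure D1:**
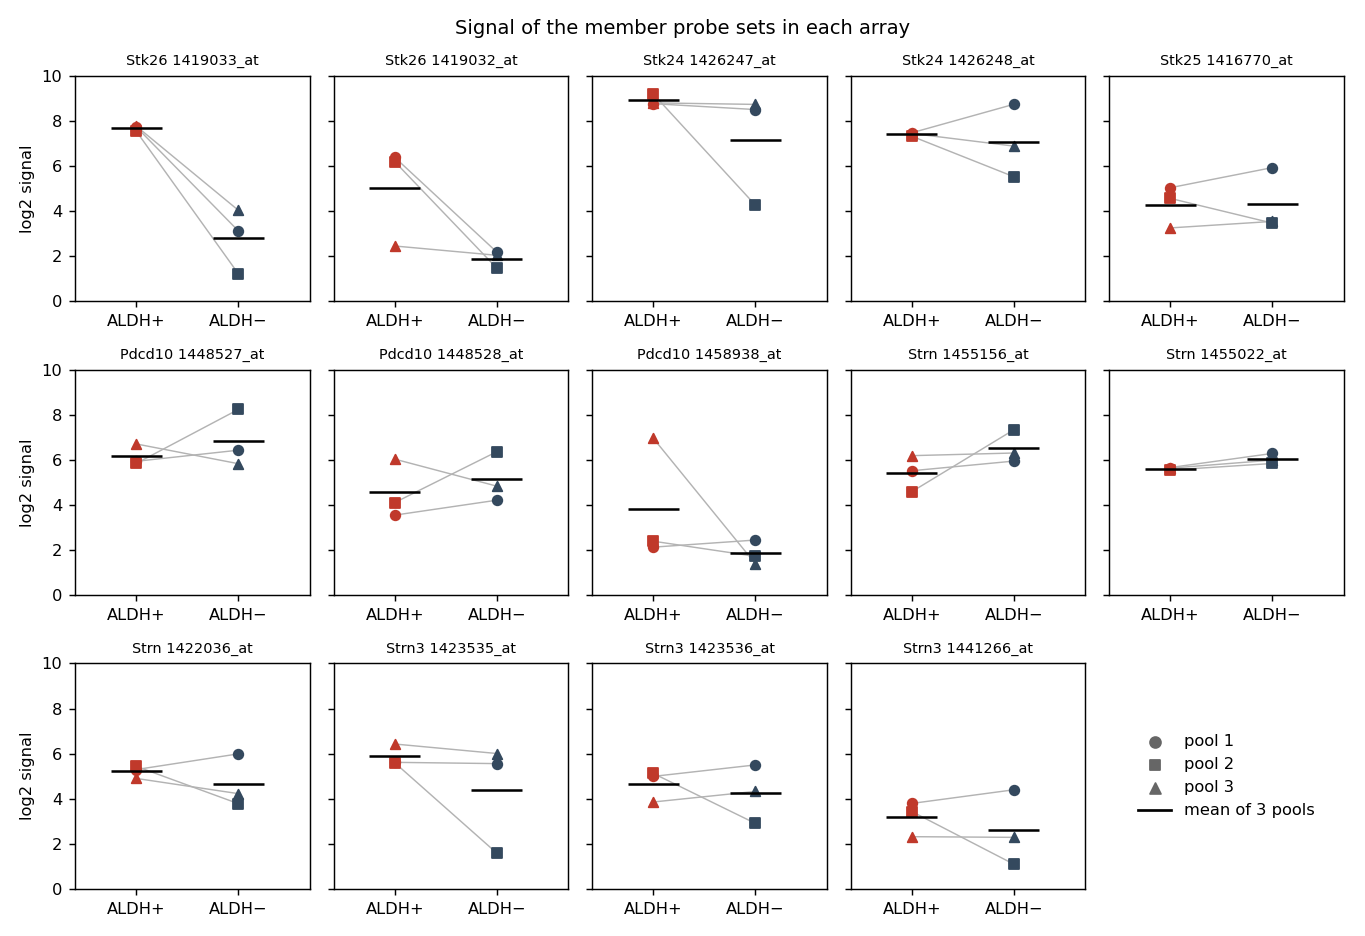
Log2 signal (vertical axis) of the 14 member probe sets on each array, with ALDH-positive cells left and ALDH-negative cells right; grey lines join the 2 samples of a pool, symbols mark the pool and black bars the mean of 3. The brighter Stk26 probe set lies at 7.54 to 7.77 in ALDH-positive and 1.22 to 4.04 in ALDH-negative cells, while most other probe sets overlap between the fractions.

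Stk26 signal was higher in ALDH-positive cells of every pool. The brighter of its probe sets, 1419033_at, read 7.73, 7.54 and 7.77 in ALDH-positive cells of pools 1 to 3, against 3.12, 1.22 and 4.04 in ALDH-negative cells. The ALDH-positive readings were close together and far above every ALDH-negative one. The pool differences were 4.61, 6.32 and 3.73, with a mean of 4.89 (SD 1.32, SE of the limma fit 0.74, n = 3 pools), or 29.6-fold. Over pools 1 and 3 alone the mean was 4.17. In the values as deposited, before quantile normalization, the same probe set read 8.13, 7.92 and 7.94 in ALDH-positive against 2.98, 1.66 and 3.95 in ALDH-negative cells. The ALDH-negative mean of 2.79 lies next to 2.73, the level under which probe sets were left out as dim, so this fold is against a signal close to background. Of the 27022 probe sets tested, 2 had a larger mean difference.

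The second Stk26 probe set, 1419032_at, had the same direction but failed to match the first in pool 3. It read 6.38 and 6.19 in ALDH-positive cells of pools 1 and 2, but 2.45 in those of pool 3, against 2.18, 1.47 and 2.04 in ALDH-negative cells. All its ALDH-negative readings and the pool 3 ALDH-positive reading lay under the level for dim probe sets. The pool differences were 4.20, 4.72 and 0.41, with a mean of 3.11 (SD 2.35) and 2.31 over pools 1 and 3. The brighter probe set exceeded the dimmer by 1.35 on both ALDH-positive arrays of pools 1 and 2, and by 5.31 on that of pool 3. The ALDH-positive array of pool 3 is also the one with the lowest 5' Gapdh control, and the part of RNA quality in the gap was not tested. Agreement between the Stk26 probe sets thus held within 0.41 in pool 1 and 1.60 in pool 2, and was lost by 3.32 in pool 3.

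**Figure D2:**
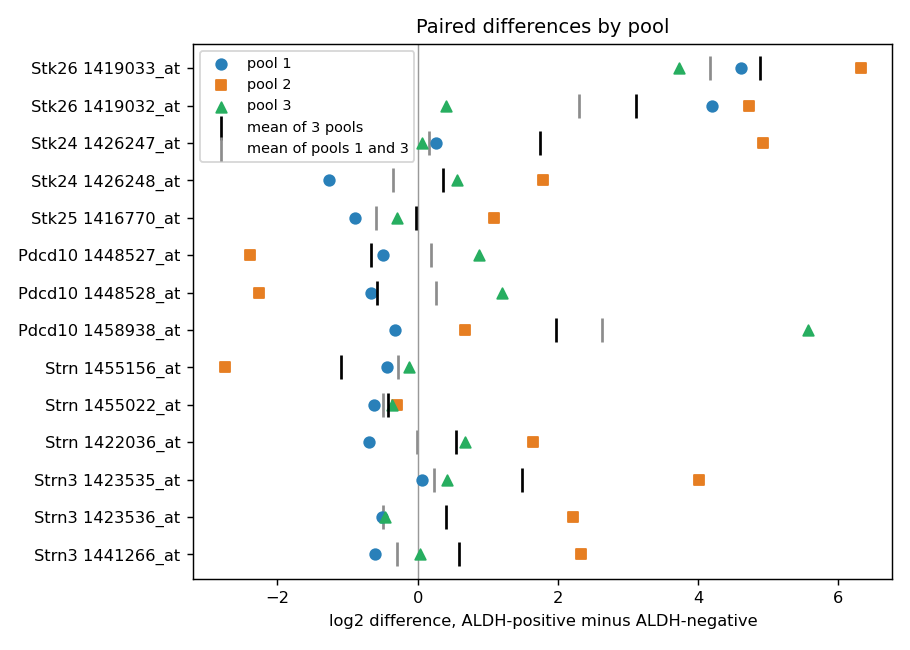
Log2 difference of ALDH-positive minus ALDH-negative cells (horizontal axis) for each member probe set (rows), with 1 symbol per pool, a black bar for the mean of 3 pools and a grey bar for the mean of pools 1 and 3. Both Stk26 probe sets lie to the right in every pool, and for most other probe sets pool 2 lies far from pools 1 and 3.

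Stk24, the sister kinase that is also known as MST3, was bright in both fractions outside the array that stood apart. Probe set 1426247_at read 8.76, 9.19 and 8.80 in ALDH-positive cells, against 8.50, 4.26 and 8.73 in ALDH-negative cells. The low reading was that of pool 2, and without it the fractions lay close to each other. The differences were 0.26, 4.92 and 0.07, and their mean of 1.75 (SD 2.75) became 0.16 over pools 1 and 3. Probe set 1426248_at read 7.48, 7.32 and 7.44 in ALDH-positive cells, against 8.74, 5.52 and 6.88 in ALDH-negative cells. Its differences of -1.26, 1.80 and 0.56 changed direction between pools. Its mean was 0.36 (SD 1.54), and -0.35 over pools 1 and 3, so the fractions did not differ by more than the spread between pools.

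Stk25, the third kinase, was measured by 1 probe set, 1416770_at. It read 5.04, 4.56 and 3.26 in ALDH-positive cells, against 5.93, 3.47 and 3.54 in ALDH-negative cells. The fractions overlapped, and the pools differed more from each other than the fractions did. The mean difference was -0.03 (SD 1.02), and -0.59 over pools 1 and 3. It was -0.16 in the deposited values and 0.0059 with each array centred on its median, so Stk25 had no stable sign.

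The difference of Stk26 was set against that of its sisters within each pool, which compares differences and not levels. The difference of 1419033_at exceeded that of the brighter Stk24 probe set by 4.35, 1.39 and 3.66 in pools 1 to 3, and that of Stk25 by 5.50, 5.22 and 4.02. It exceeded the differences of 11 of the 12 probe sets of the other 5 genes in all 3 pools. The exception was a probe set of Pdcd10, whose pool 3 difference was larger by 1.83. Since Stk26 was chosen for its difference, this order is a description.

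Pdcd10, the adaptor of the kinases, had 3 probe sets that shared a direction in pools 1 and 3 but not in pool 2. All 3 were lower in ALDH-positive cells of pool 1 and all 3 were higher in those of pool 3. Its brightest, 1448527_at, read 5.94, 5.84 and 6.70 in ALDH-positive cells, against 6.43, 8.23 and 5.83 in ALDH-negative cells. It was the ALDH-negative array of pool 2 that read highest here, so that array was not dim for every member. The differences were -0.49, -2.39 and 0.88, with a mean of -0.67 (SD 1.64), and 0.19 over pools 1 and 3. Probe set 1448528_at gave -0.66, -2.26 and 1.20, the same order of pools, with a mean of -0.57 (SD 1.73) and 0.27 over pools 1 and 3. In the deposited values the pool 2 difference of 1448527_at was -0.64 and its mean -0.05, and with each array centred on its median its mean was 0.12, above 0.

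The remaining Pdcd10 probe set, 1458938_at, was bright on a single array. It read 6.95 in ALDH-positive cells of pool 3, against 2.13 and 2.39 in ALDH-positive cells of pools 1 and 2 and 2.44, 1.72 and 1.39 in ALDH-negative cells. Every reading but that one lay under the level for dim probe sets. Its mean difference of 1.97 (SD 3.15) was 2.62 over pools 1 and 3 and became 0.18 without pool 3. The other Pdcd10 probe sets showed a smaller step on the same array, which was also the highest of the ALDH-positive arrays for both. Pdcd10 as a gene did not differ between the fractions by more than the spread between pools in any of its probe sets.

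The scaffold gene Strn had a mean difference below 0 in 2 of its 3 probe sets. Probe set 1455022_at read 5.66, 5.55 and 5.63 in ALDH-positive cells, against 6.28, 5.84 and 5.99 in ALDH-negative cells. These groups did not overlap, and the differences of -0.63, -0.29 and -0.36 were the most even of all members, with a mean of -0.43 (SD 0.18, SE of the limma fit 0.63) and -0.49 over pools 1 and 3. In the deposited values, however, pool 2 gave 0.77 for this probe set and the groups overlapped, with a mean of -0.10. With each array centred on its median, the mean was 0.07, above 0.

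Probe set 1455156_at of Strn read 5.52, 4.59 and 6.19 in ALDH-positive cells, against 5.94, 7.34 and 6.30 in ALDH-negative cells. Its mean of -1.10 (SD 1.44) came mostly from pool 2 and was -0.27 over pools 1 and 3. The dimmest, 1422036_at, went the other way in the mean, at 0.54 (SD 1.18), with pool differences of -0.70, 1.65 and 0.67 and -0.01 over pools 1 and 3. All 3 probe sets of Strn were lower in ALDH-positive cells of pool 1, by -0.70 to -0.43.

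Strn3, the other striatin among the members, followed pool 2. Its brightest probe set, 1423535_at, read 5.61, 5.59 and 6.43 in ALDH-positive cells, against 5.56, 1.58 and 6.01 in ALDH-negative cells. As with Stk24, the fractions were close in pools 1 and 3, and the mean of 1.50 (SD 2.18) became 0.24 without pool 2. Probe set 1423536_at gave -0.51, 2.21 and -0.47, and the dim 1441266_at gave -0.61, 2.34 and 0.03. Their means of 0.41 (SD 1.56) and 0.59 (SD 1.55) were -0.49 and -0.29 over pools 1 and 3. All 3 Strn3 probe sets were higher in ALDH-positive cells of pool 2, whose ALDH-negative array read each of them lower than any other array did.

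All 14 member probe sets passed the filter on dim values. Of these, 9 had a mean difference above 0 and 5 below it, where 48.2% of all probe sets tested lay above 0. In all 3 pools 4 were higher, namely both of Stk26 and 1 each of Stk24 and Strn3, while 2 of Strn were lower, and 8 were of mixed direction. Among all probe sets tested, 11.5% were higher in all 3 pools and 10.8% lower. In the deposited values, however, the Strn3 probe set, 1423535_at, was lower in pool 1 (-0.18). Those of Strn were each higher in 1 pool there, 1455156_at in pool 3 (0.13) and 1455022_at in pool 2 (0.77). The ALDH-positive and ALDH-negative readings did not overlap for 3 member probe sets that were higher, both of Stk26 and 1 of Stk24, and for 1 of Strn that was lower, where 3.49% and 3.4% of all probe sets tested did so. The median difference of the members was 0.48, against -0.04 over all probe sets tested, and without pool 2 these medians were 0.08 and 0.01. Stk26 was chosen by this difference, so its probe sets enter these counts and medians by selection, and the shares beside them are a description only. By pool the member medians were -0.50, 1.72 and 0.42, so the members as a group had no common direction. Without pool 2, 6 of the 14 means changed sign, and those of Stk26 did not.

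**Figure D3:**
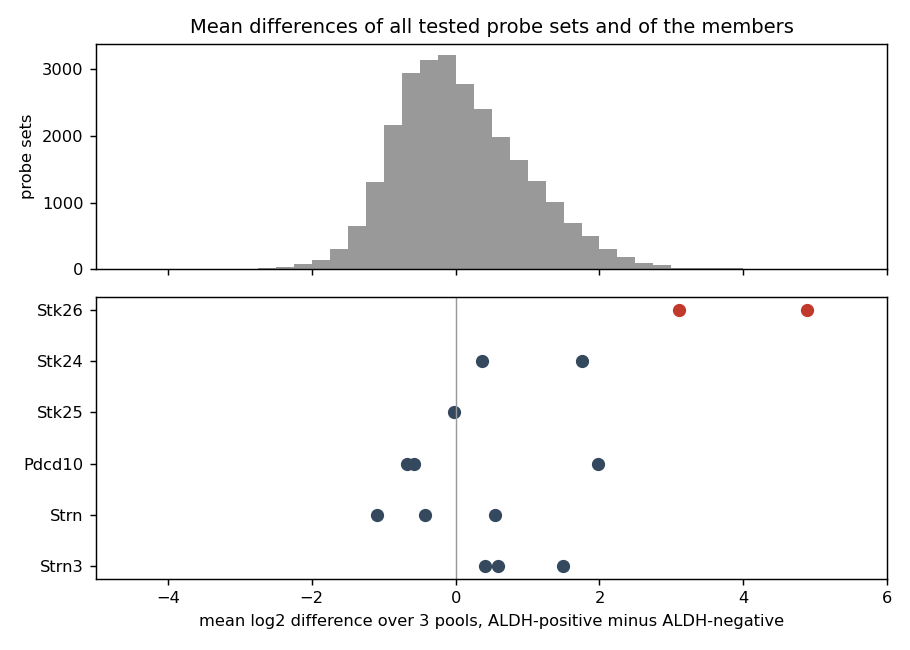
Mean log2 difference over 3 pools, ALDH-positive minus ALDH-negative (horizontal axis); the upper panel counts all 27022 probe sets tested in steps of 0.25, and the lower panel shows the member probe sets by gene. The Stk26 probe sets, at 3.11 and 4.89, lie at the right end of the distribution, and those of the other 5 genes lie between -1.10 and 1.97.

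Over the 6 arrays, the genes whose pattern was most like that of the brighter Stk26 probe set were Lratd2, Acta2, Zcchc3, Col3a1 and Fam110c. Likeness was the Pearson correlation over these arrays among 12813 other genes, each by its brightest probe set, and it was 0.994, 0.993, 0.992, 0.989 and 0.987. The 6 arrays share pools and fractions, so these values are a description. Acta2, which encodes the smooth muscle actin, read 9.59, 9.29 and 10.09 in ALDH-positive against 6.19, 4.78 and 7.23 in ALDH-negative cells. Col3a1, a fibrillar collagen gene, read 8.92, 8.75 and 8.96 against 4.88, 3.44 and 6.61. In both, as in Stk26, the ALDH-negative arrays ranked pool 3, pool 1 and pool 2 from high to low. Both genes were picked for likeness on these same arrays, so the shared order largely follows from that choice. The other Stk26 probe set correlated at 0.747 with the brighter one, and 686 genes had a higher value. Among the partners the value ran from 0.749 for Stk24 (1426247_at) to -0.747 for Strn (1455156_at).

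Markers of the labelled cell type moved with Stk26. All 12 surface epithelium and mesothelium markers were higher in ALDH-positive cells of every pool, where 11.3% of all genes were. Their median difference was 3.52, and their summed linear signal was 2440 to 3180 in ALDH-positive and 280 to 526 in ALDH-negative cells. By log2 mean over both fractions the brightest were the keratins Krt8 and Krt18 and the uroplakin Upk3b. The labelled cell type thus showed its defining markers mainly in the ALDH-positive fraction. Stromal markers, with 3 of 8 higher in every pool and a median difference of 0.73, summed to 950 to 1160 against 120 to 404. Smooth muscle and pericyte markers summed to 1050 to 1360 against 135 to 279, but the median difference of that list was -0.15 (0.52 over pools 1 and 3), and only Acta2 and Tagln of its 6 genes were higher in every pool. The part of these cell types in the Stk26 difference was not tested.

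Markers of steroid-producing cells were bright in both fractions, at sums of 3250 to 4830 in ALDH-positive and 292 to 7100 in ALDH-negative cells, with the low end on the array that stood apart. None of the 6 on the array was higher in every pool. Granulosa markers summed to 900 to 1390 against 151 to 1780, with 1 of 7 higher in every pool. Inha read 8.4 to 9.1 in ALDH-positive and 4.5 to 9.9 in ALDH-negative cells, and Inhba 8.8 to 9.4 and 5.0 to 9.2. Foxl2 read 3.6 to 6.6 and 3.6 to 6.9. For all of these, the lowest ALDH-negative reading was that of pool 2. The follicle-stimulating hormone receptor Fshr, also on the granulosa list, was under the level for dim probe sets in the mean. Endothelial markers, of interest because Pdcd10 acts in blood vessels, summed to only 59.8 to 119 against 67.7 to 109, with 1 of 8 higher in every pool, and Cdh5, Tek, Tie1 and Emcn were dim. The gene higher in every pool was Kdr, at 6.30, 5.83 and 3.87 in ALDH-positive against 3.68, 4.40 and 3.61 in ALDH-negative cells. Its mean difference was 1.44, and its fractions overlapped. Pecam1 and Vwf differed by -0.01 and 0.06 in the mean. Eng, above the level for dim probe sets, was lower in every pool, at 3.53 to 3.75 against 4.50 to 5.19. Of all probe sets tested, 3.4% were lower without overlap. The dim Tek, Tie1 and Emcn were also lower in every pool, where 11.3% of all genes were higher and 11.4% lower. Leukocyte markers summed to 37.1 to 306 against 61 to 330, with 0 of 7 higher in every pool, and Adgre1, Lyz2 and Itgam were dim. Others were bright on single arrays or in a single pool. Csf1r read 8.06 (ALDH-positive) and 8.18 (ALDH-negative) in pool 3, against 2.76 to 4.96 elsewhere. Cd3e read 7.72 and Ptprc 5.33 on the ALDH-negative array of pool 2, against 2.88 to 3.75 and 1.85 to 3.41 elsewhere. Oocyte markers summed to 25.9 to 34.3 against 22.3 to 87.1 and oviduct markers to 55.1 to 281 against 30.2 to 185, with 0 of 6 and 2 of 4 higher in every pool.

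The other genes of the pathway were taken from 6 lists with 65 genes, of which 57 were tested, each by its brightest probe set. In the limma fit, with p-values adjusted by Benjamini-Hochberg across the whole table, 0 of the 57 rose and 0 fell, and 0% of the 27022 probe sets and of the 12814 genes passed. The smallest adjusted p was 0.895 in the lists and 0.765 overall. At an unadjusted p under 0.05, 3 of the 57 were higher and 0 lower, where 1.93% and 0.429% of all genes were. Of the 57, 38 lay higher in the mean, against 46% of all genes. In all 3 pools 16 were higher and 7 lower, where 11.3% and 11.4% of all genes were. Their median difference was 0.23, and -0.08 over all genes. Over pools 1 and 3 these were 0.25 and 0.04.

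Among kinase partners and substrates, Ezr had the largest difference. It encodes ezrin, which ties actin to the cell membrane and is phosphorylated by human MST4 in epithelial cells. Ezr read 8.77, 8.38 and 7.68 in ALDH-positive cells, against 6.56, 1.35 and 5.41 in ALDH-negative cells. The groups did not overlap, and 3.55% of all genes were higher without overlap. The differences were 2.21, 7.02 and 2.27, with a mean of 3.83 (SE 1.04, limma adjusted p = 0.895) and 2.24 over pools 1 and 3. A dim probe set of Ezr, 1456725_x_at, gave 0.64, -0.31 and 1.17 (mean 0.50, and 0.90 over pools 1 and 3). Of the 9 genes in that list, 8 lay higher in the mean and 2 in every pool, where 46% and 11.3% of all genes did. Mob1a, a cofactor of the NDR and LATS kinases, differed by 1.41 (SE 0.76, 0.92 over pools 1 and 3), and Cab39l, a relative of the MO25 protein that activates these kinases, by 1.16 (SE 0.75) and 0.38. Other probe sets of both genes differed from these values. For Mob1a, 1423782_at and 1424484_at gave 1.22 and 0.07 in the mean, and -0.02 and -0.71 over pools 1 and 3. For Cab39l, 1446539_at was lower in every pool (mean -1.10, and -0.40 over pools 1 and 3), and 1426367_at gave -0.04 and -0.79. The dim probe set 1420733_at of Cab39l gave 0.96 and 1.01.

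Among the 7 tested scaffold and adaptor genes of STRIPAK, 4 lay higher in every pool and 1 lower, where 11.3% and 11.4% of all genes did. Slmap, a membrane-anchored subunit, read 7.69, 7.57 and 7.89 in ALDH-positive cells, against 7.34, 4.51 and 6.96 in ALDH-negative cells. The fractions did not overlap, where 3.55% of all genes were higher without overlap, but the difference of 1.45 (SE 0.76) was 0.64 without pool 2. Other tested probe sets of Slmap, 1421215_a_at and 1426458_at, gave 1.76 and 0.73, and 0.77 and 0.00079 without pool 2. The striatin Strn4 differed by 1.45 (SE 0.81) and the cortactin-binding protein gene Cttnbp2nl by 1.44 (SE 0.67), and over pools 1 and 3 by 0.48 and 1.12. Another tested probe set of Cttnbp2nl, 1435542_s_at, gave 1.21 and 0.46. None of the 7 passed the test, and their median of 1.33 was 0.48 without pool 2.

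The 5 phosphatase 2A genes had a median of -0.16, and 0 of them were higher and 3 lower in every pool, where 11.3% and 11.4% of all genes were. Ppp2r1a, the scaffold subunit, read 8.93, 8.98 and 9.93 in ALDH-positive cells, against 9.04, 11.48 and 10.63 in ALDH-negative cells. It lay lower in each pool, with a mean of -1.10 (SE 0.73) and -0.40 over pools 1 and 3. Its 4 other probe sets differed by -1.08 to -0.54, and by -0.84 to -0.14 over pools 1 and 3. The catalytic subunit Ppp2cb differed by 1.33 (SE 0.84), and by 0.32 over pools 1 and 3. Its dim probe set 1421822_at lay the other way, at -0.51 and -0.43. The catalytic subunit Ppp2ca differed by -0.31 (SE 0.63), and by -0.24 over pools 1 and 3. Its probe set 1439912_at differed by -1.97, and 1417367_at by 1.31, of which pool 2 gave 4.53. Over pools 1 and 3 these were -1.54 and -0.30, so that all 3 probe sets of Ppp2ca lay below 0 there.

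In the list of the CCM complex, which holds the other genes of cerebral cavernous malformation, 5 of 9 tested genes lay higher and 4 lower in the mean, 0 of them higher in every pool and 3 lower in every pool, as were 11.4% of all genes. These 3 were Ccm2 and, named after their values were seen, Rap1a and Klf2. Krit1, which anchors the complex, differed by -1.46 (SE 0.78), and by -0.80 over pools 1 and 3. Its other tested probe sets, 1428729_at and 1439317_at, gave -0.18 and -0.54, and -1.20 and -0.32 over pools 1 and 3. Ccm2, its partner, differed by -1.14 (SE 0.84), and by -0.08 over pools 1 and 3. Its other probe sets 1434649_at and 1456290_x_at gave 0.14 and -1.07, and -0.75 and 0.13 over pools 1 and 3, so the sign depended on the probe set and on pool 2. Rap1b, the small GTPase of the family that recruits Krit1, differed by 1.21 (SE 0.82) and 0.25, and its other probe sets by 1.95 and 1.19 (0.79 and 0.25 over pools 1 and 3).

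**Figure D4:**
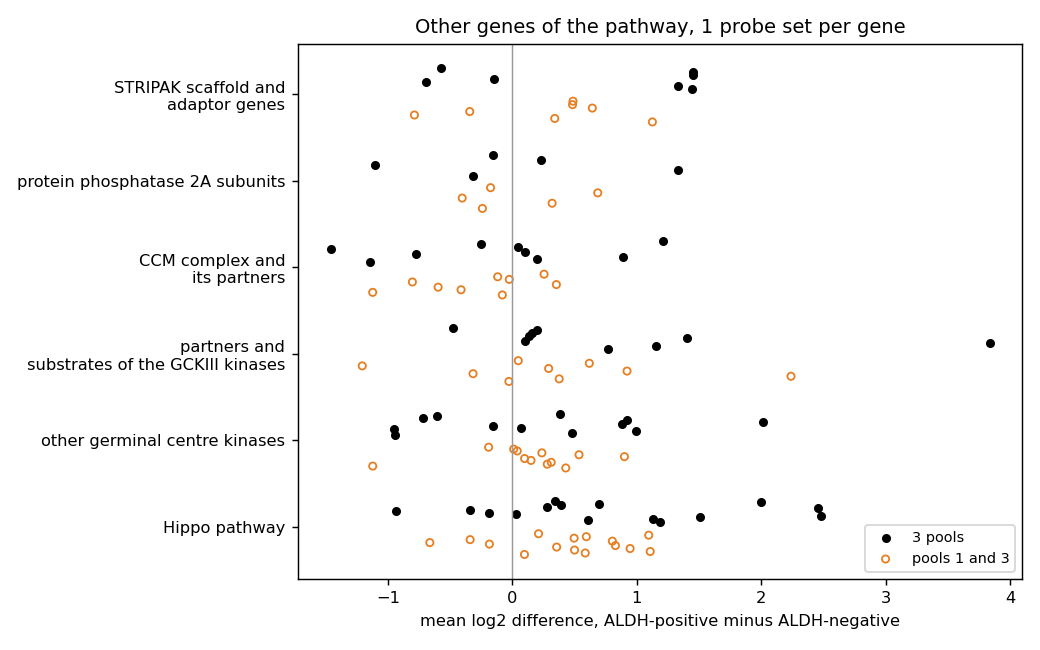
Mean log2 difference, ALDH-positive minus ALDH-negative (horizontal axis), for the tested genes of each pathway list (rows), over 3 pools (black) and over pools 1 and 3 (open orange circles). Ezr stands at the right, at 3.83 and 2.24, and the Hippo genes lie mostly above 0.

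Of the 15 Hippo pathway genes, 12 lay higher in the mean and 7 in every pool, with 0 lower in every pool and a median of 0.60 (0.50 over pools 1 and 3). Of all genes, 46% lay higher in the mean, 11.3% higher in every pool and 11.4% lower in every pool. The list was chosen with earlier results of these data known, so these counts are a description. Wwtr1, the coactivator also called TAZ, read 7.03, 7.15 and 7.31 in ALDH-positive cells, against 6.47, 3.36 and 5.68 in ALDH-negative cells. The fractions did not overlap, where 3.55% of all genes were higher without overlap. The difference of Wwtr1 was 1.99 (SE 0.80) and 1.10 over pools 1 and 3. Its other probe sets, 1417817_a_at and 1437155_a_at, gave 0.85 and 0.86 in the mean but only 0.0064 and 0.10 over pools 1 and 3, and were lower in ALDH-positive cells of pool 3. Ccn2, a target gene of these coactivators, differed by 2.48 (SE 1.01), and by 0.95 over pools 1 and 3. Tead1, the transcription factor they bind, differed by 2.46 (SE 1.07) and 0.80. Its other probe set, 1429556_at, gave 1.16 and, over pools 1 and 3, -0.30. None passed the test over all probe sets.

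Among the other germinal centre kinases, 12 of 16 were tested, 7 lay higher in the mean and 3 in every pool, where 46% and 11.3% of all genes did. Stk39, a kinase that controls ion cotransporters, differed by 2.02 (SE 1.00), and by 0.54 over pools 1 and 3, and its other tested probe set, 1419551_s_at, by 2.12 and 1.02. Stk10, which phosphorylates ezrin and its relatives in lymphocytes, was the most even, with 0.69, 0.84 and 1.11 in pools 1 to 3 (mean 0.88, SE 0.63, and 0.90 over pools 1 and 3). Map4k5 differed by 0.99 (SE 0.75), and by 0.28 over pools 1 and 3. Its other probe sets, 1427084_a_at and 1427376_a_at, gave 0.90 and 1.01, and 0.25 and -0.39 over pools 1 and 3. The median of this list was 0.23, with values from -0.95 to 2.02.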

How the data were processed

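The deposited table holds 1 log2 signal for each of 45101 probe sets on each of 6 arrays. The log2 scale was inferred from the deposited values, which range from 0.035 to 13.06. GeneSifter and a paired analysis are named in the series design; how the authors summarised and normalized the arrays is not given in the sources used here. Amplification used the Ovation Pico WTA kit, per the labels' protocols, and can lose 5' signal unevenly between arrays.

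The 64 control probe sets were left out, and the arrays, whose medians differed by 0.46, were quantile normalized. Probe sets in the lower 40% by mean, under a log2 level of 2.73, were removed, which left 27022. Gene names are those of GEO's platform annotation, checked through the Entrez identifier against the RefSeq table of GRCm38.p6: 34945 probe sets had 1 symbol, 932 several and 9160 none. The array's gene names can be old, and promoter windows come from RefSeq.

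The comparison of fractions used limma 3.58.1 (lmFit, eBayes, in R 4.3.3) with pool as a blocking term, p-values adjusted by Benjamini-Hochberg and a threshold of 0.05. The fit was run on simulated data with equal noise on all arrays and none standing apart. That run checks the code and does not show how the fit performs on these arrays. The pairing comes from the paired design. As a check, deviations of same-numbered arrays correlated at 0.38, -0.19 and 0.35 in pools 1 to 3, and the highest value between pools was 0.42. No same-numbered value reached that, so the check did not bear out the pairing, which rests on the stated design alone. A p-value therefore rests on 3 pools, but not only on how far they differ for the probe set in question. The eBayes step also uses the variance of the other probe sets. The SE of Strn 1455022_at was 0.63, although its pool differences had an SD of only 0.18. For Ppp2ca the SE was 0.63 and the SD 0.13. The members and lists were chosen with earlier results of these data known. Genes named outside the members are up to 3 of smallest p per pathway list, the 5 most like Stk26, and some of the 3 brightest per marker list. The 3 brightest are not named for every marker list. Other marker genes, among them those named as dim, and second probe sets were picked after their values were seen. Alternatives were other scalings, filters, variance models, probe set rules and left-out pools.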

Additional observations from a re-analysis of the deposited data

How the results depend on the processing

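The Stk26 difference kept its direction under every alternative tried. It was 5.13 in the deposited values, 5.30 with arrays centred on their medians and 3.999 as the mean of both probe sets. It was 4.89 with no replicate block, as it must be in this balanced design, and 4.10 without the ALDH-negative array of pool 2 and no replicate block, and leaving out each pool in turn gave 4.17 to 5.46. The count of all probe sets past the threshold was 0 in each limma fit except without pool 1, where it was 7 (range 0 to 7 over the left-out pools). At an unadjusted p under 0.05 it was 661, and 412 to 1961 under the alternatives, with 910 without a filter, 412 with the lower 60% left out, 1232 without pool 2 and 1961 without pool 1. The count of pathway genes past the threshold was 0 throughout, with 1 to 6 at an unadjusted p under 0.05. Of the 13 other member differences, 6 changed sign without pool 2, 1 without pool 1, 1 without pool 3 and 3 with median centring, and the cause was not tested. With 1 array per fraction in each pool, the block cannot move a mean difference, so that fit bears only on the counts: with no replicate block, 542 probe sets and 2 pathway genes had an unadjusted p under 0.05, against 661 and 3 with it, and the counts past the threshold stayed at 0. Signals near the filter level limit the folds of Stk26 in both probe sets.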
